A study of Mus musculus with 9 samples.

Results

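Nuclear receptors were described in the livers of mice on 3 diets. They were 38 genes chosen by name, and every probe whose gene name on the array was one of the 38 was taken. This gave 68 probes of the 41174 on the array, where 27339 genes were represented. Of these probes, 7422 matched no reference gene and were counted as genes under the name the array gave them. Of the 38 receptors, 29 were detected in every liver, beside 13226 of the 27339 genes. Only Esrrg differed between diets past the test's threshold, in 1 of the 3 comparisons and on 1 of its 2 probes.

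The livers came from male C57bl/6J mice aged 16 weeks that had eaten 1 of 3 diets for 12 weeks. The chow group ate chow, the HFD group was given a high-fat diet (Research Diets D12492, with fat at 60 kcal%), and the HFD+APS group ate that same high-fat diet with 40 g of APS (Astragalus polysaccharides, carbohydrates of a plant root) mixed into each kg. A group had 3 livers with 1 array each. They came from a study of 24 mice and had been picked by HE staining and TG (triglyceride) results, so the p-values measure the spread between chosen livers.

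Nuclear receptors are transcription factors that carry a DNA-binding domain and a pocket for a small fat-soluble ligand. Ligands such as fatty acids, oxysterols, bile acids, steroids or drugs switch the receptor between corepressor and coactivator partners, and many receptors bind DNA as a pair with a retinoid X receptor. In the liver they set the transcription of genes for fat burning and storage, bile acid synthesis, and drug clearance. Their activity is set largely by ligand, which an array of transcripts does not read.

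Signals are given as log2 of the probe's intensity relative to the 75th percentile of its array, so 0 is the 75th percentile and 1 unit is a doubling. Probes differ in brightness for reasons of their own, so no receptor's level was set against another's. Each change is a log2 difference between group means with its SE, from 1 limma fit over all 9 arrays and 17629 genes, and a gene passed the threshold at a Benjamini-Hochberg adjusted p under 0.05. The 3 comparisons share their groups and are not independent of each other.

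The 75th percentile signal lay between 209.7 and 264.7 on the 9 arrays. The chow arrays were on 1 slide, the HFD arrays and HFD+APS 1 on a second, and HFD+APS 2 and 3 on a slide of their own. On the first slide 61.5 to 68.4% of spots were well above background, on the second 50.4 to 54.1% and on the last 63.5 to 64.5%. Chow shares no slide with either other diet, so HFD against chow and HFD+APS against chow, the comparison with the 1 receptor past the threshold, cannot be told apart from slide. HFD+APS against HFD can be compared within the second slide, with a single HFD+APS array.

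A probe counted as detected on an array where the scanner software called it well above background. By that call 29 receptors were detected on all 9 arrays, 4 on 1 to 8 arrays and 5 on none. Of the 27339 genes on the array, 13226 were detected on all 9. The 29 include the receptors for which the liver is best known: Ppara, Nr1h4, Hnf4a, Nr1i2, Nr1i3, Nr1h3, Nr5a2 and Rxra. The 5 on no array were Ppard, the fatty acid receptor found in most tissues, Rara, a retinoic acid receptor, Vdr, the vitamin D receptor, Nr2f1, an orphan receptor also called COUP-TF1, and Nr4a3, an immediate early orphan receptor. Each of these 5 had only 1 probe. Esr1 and Rarb, detected in every liver, each had 1 probe detected on 0 arrays and another on all 9.

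Of the 4 in between, Rarg and Nr3c2 were detected on 7 arrays each and Hnf4g on 5. Pgr, the progesterone receptor, was detected on 1 array, a chow array. Hnf4g, a relative of Hnf4a best known from the gut, was above background in 3 of 3 chow, 0 of 3 HFD and 2 of 3 HFD+APS livers. Its chow mean was at least 1.03-fold brighter than the bound set by the HFD arrays, and the fit gave an adjusted p of 0.66. The HFD arrays sit on the slide with the fewest spots above background, and the part of the slide in these counts was not tested.

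The 32 receptors with a probe detected on 3 or more arrays were tested, as were 17629 of the 27339 genes. Ppard, Rara, Vdr, Nr2f1, Nr4a3 and Pgr were not tested. A probe not well above background gives only a bound, not an absence. With the scanner's weaker call, a signal positive and significant over background, 36 of the 38 passed on 3 or more arrays, all but Ppard and Nr4a3.

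**Figure D1:**
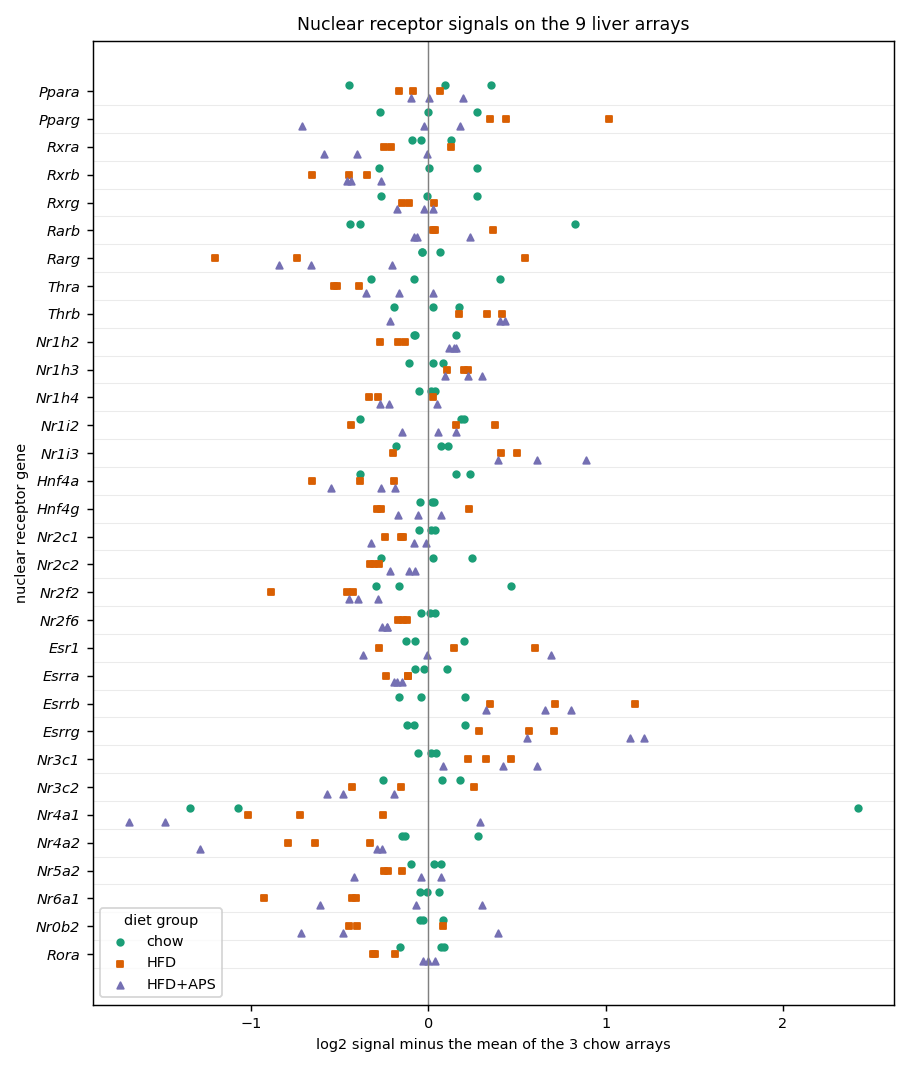
Log2 signal of each of the 32 tested receptors on each of the 9 arrays, less the mean of the 3 chow arrays; circles are chow, squares HFD and triangles HFD+APS, 1 liver each. The widest scatter is that of Nr4a1, whose chow 1 value lies far to the right, and the narrowest groups are those of Nr2f6, with an SD of 0.02 to 0.04 in each.

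In HFD against chow, 0 of 32 receptors were higher and 0 lower past the threshold, while 10.9% of all genes passed (4.55% higher and 6.38% lower). At an unadjusted p under 0.05 there were 8 of 32, beside 31.4% of all genes. The smallest adjusted p was 0.0671, for Esrrb. The groups did not overlap for 17 receptors (38.9% of all genes), with HFD above chow for 5 (16.6% of all genes) and below it for 12 (22.3% of all genes). The median change of the 32 was -0.15, beside -0.04 for all genes tested, and the changes ran from -0.67 to 0.74.

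For HFD+APS against HFD, 0 of 32 passed in either direction, while 1.5% of all genes did (0.476% higher and 1.03% lower). At an unadjusted p under 0.05 there were 3 of 32, beside 17.9% of all genes, and the smallest adjusted p was 0.15, for Nr1h2. The groups did not overlap for 6 receptors (24.5% of all genes), with HFD+APS higher for 4 (12.6%) and lower for 2 (11.8%). The median change was 0.03, beside 0 for all genes.

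In HFD+APS against chow, Esrrg was higher and 0 of 32 were lower, while 3.46% of all genes passed (0.959% higher and 2.5% lower). At an unadjusted p under 0.05 there were 6 of 32, beside 25.2% of all genes. The 2 groups did not overlap for 9 receptors (30.9% of all genes), with HFD+APS above chow for 5 (12.8%) and below it for 4 (18.2%). The median change was -0.13, beside -0.03 for all genes. The HFD+APS mean fell between the chow and HFD means for 17 of 32 receptors and outside them for 15. This order was not counted over all genes, so no share stands beside it. Some of the means lay close together, as those of Nr1i2 in chow, HFD and HFD+APS at 2.33, 2.36 and 2.35.

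**Figure D2:**
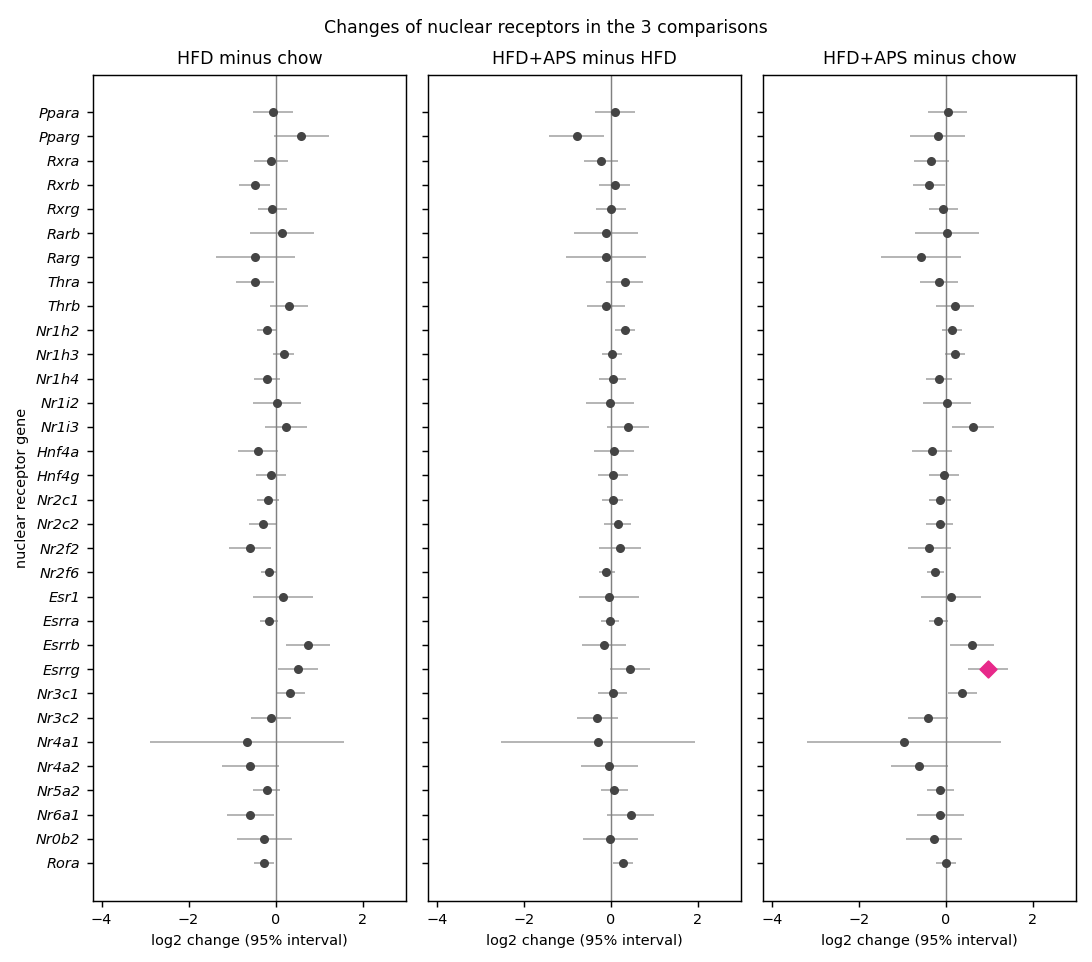
Log2 change of each tested receptor in the 3 comparisons, with the 95% interval from the limma fit; the diamond marks the 1 value past the threshold. Esrrg in HFD+APS against chow (0.97) is that value, the other points lie between -0.96 and 0.74, and the interval of Nr4a1 is the widest in each panel.

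The estrogen-related receptors have no known hormone and drive genes of mitochondrial respiration. Esrrg was measured by 2 probes on chromosome 1 of mm9, plus strand, both given by the array's annotation on the same transcript. The distance between their starts is 3081 bases on the transcript and 3081 bases on the genome. The first 30 of the 60 bases of each are printed in lower case, with no base singled out, because the 2 stretches gave opposite results; whether either is coding or untranslated was not determined.
Esrrg A_51_P224192 (chr1:190035037-190035096, transcript base 1565): ccctcccatcctgcacgttgaaaagggaag
Esrrg A_52_P317246 (chr1:190038118-190038177, transcript base 4646): ttagccatgcaatttgcagttttattttcc

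The second probe, A_52_P317246, is the brighter of the pair on average over the 9 arrays and stood for the gene. It is so through the fatty diets (means of -1.60 in HFD and -1.15 in HFD+APS, beside -2.06 and -2.32 on the first probe), while in chow the first probe was the brighter (-1.42 beside -2.12). Esrrg read -1.91, -2.24 and -2.20 in chow 1 to 3, -1.55, -1.83 and -1.41 in HFD 1 to 3, and -1.56, -0.98 and -0.90 in HFD+APS 1 to 3. All 6 livers on the fatty diets were above all 3 chow livers, and HFD+APS overlapped HFD because HFD+APS 1 lay among the HFD livers. Esrrg rose by 0.97 ± 0.20 in HFD+APS against chow (adjusted p = 0.0437). The change was 0.52 ± 0.20 in HFD against chow (adjusted p = 0.123) and 0.45 ± 0.20 in HFD+APS against HFD (adjusted p = 0.294). Within the slide shared by HFD+APS 1 and the HFD livers, the last of these was 0.03 (adjusted p = 0.96).

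On the first probe, A_51_P224192, Esrrg read -1.54, -1.35 and -1.36 in chow, -2.03, -1.98 and -2.16 in HFD, and -1.77, -2.80 and -2.38 in HFD+APS. Here all 6 livers on the fatty diets were below all 3 chow livers. With each probe fitted as a feature of its own, this probe gave -0.90 ± 0.23 in HFD+APS against chow (adjusted p = 0.0731) and the other 0.97 ± 0.20 (adjusted p = 0.0475). The difference between the probes, second minus first, was -0.37, -0.90 and -0.84 in chow, 0.48, 0.15 and 0.75 in HFD, and 0.21, 1.82 and 1.48 in HFD+APS. It was 1.87 higher in HFD+APS than in chow and 1.16 higher in HFD than in chow. Between HFD+APS and HFD it differed by 0.71. These differences are a description of a gene singled out because its probes part, with no test.

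The Esrrg call is that of 1 probe, and why the probes part was not tested. With the mean of its probes in place of the brighter one, Esrrg changed by 0.03 in HFD+APS against chow (adjusted p = 0.88). Its call held in 8 of the 20 other settings, and it was lost without each of chow 1, 2 and 3, HFD 1 and 2, and HFD+APS 2 and 3. In those left-out fits the change was 0.85 to 1.07 and the adjusted p 0.0619 to 0.149.

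Esrrb, the relative best known from stem cells, had the smallest p in HFD against chow. It read -2.97, -3.22 and -3.34 in chow, -2.01, -2.46 and -2.83 in HFD, and -2.85, -2.52 and -2.37 in HFD+APS. Both fatty diets lay above chow without overlap, HFD 3 and HFD+APS 1 coming closest to it. Its change was 0.74 ± 0.22 in HFD against chow (adjusted p = 0.0671) and 0.60 ± 0.22 in HFD+APS against chow (adjusted p = 0.146), neither past the threshold. Leaving out HFD 1 gave 0.53 in HFD against chow (adjusted p = 0.139), and leaving out HFD 3 gave 0.94 (adjusted p = 0.053). Over all 20 other settings the change in HFD against chow ran from 0.22 to 0.94 (adjusted p 0.0236 to 0.355). Its other probe was well above background on 1 array, a chow array, and was not tested, so the values rest on 1 dim probe.

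Esrra, the member of the class that works with the coactivator PGC-1 alpha, changed by -0.16 ± 0.09 and -0.18 ± 0.09 in HFD and HFD+APS against chow, with adjusted p of 0.282 and 0.276. Both groups lay below chow without overlap. Of 7 genes of respiration known as targets of the class, 0 rose and 0 fell in each comparison, and their median change was 0.11 in HFD against chow beside -0.04 for all genes. Esr1, the estrogen receptor of the liver, differed more among livers of one diet than between diets, with an SD of 0.18, 0.44 and 0.54 in chow, HFD and HFD+APS and changes of -0.05 to 0.16.

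The fatty acid receptors are Ppara, which turns on fat oxidation in fasting, Pparg, which drives fat storage and is best known from adipocytes, and Ppard. Ppara read 5.39, 6.19 and 5.93 in chow, 5.90, 5.75 and 5.67 in HFD, and 5.74, 5.84 and 6.03 in HFD+APS. The chow livers spread wider than the other groups and spanned all of their values. Its changes were -0.06 ± 0.20, 0.10 ± 0.20 and 0.04 ± 0.20 in the 3 comparisons, with adjusted p of 0.832 or more. The 95% interval in HFD against chow ran from -0.52 to 0.39.

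Of 20 genes known as Ppara targets, 1 rose and 4 fell in HFD against chow (4.55% and 6.38% of all genes). None passed in HFD+APS against HFD or in HFD+APS against chow, where 1.5% and 3.46% of all genes did. Vnn1, which makes pantothenate in coenzyme A turnover, rose by 1.07 ± 0.19 (adjusted p = 0.0178). Angptl4, a secreted lipase inhibitor, fell by 0.78 (SE 0.15, adjusted p = 0.0216), and Acot1, which splits acyl-CoA, fell by 1.18 (SE 0.27, adjusted p = 0.0333). Cyp4a31, a fatty acid hydroxylase, fell by 1.09 (SE 0.28, adjusted p = 0.0434), and Ehhadh, an enzyme of peroxisomal oxidation, fell by 1.52 (SE 0.40, adjusted p = 0.0472). The list's median change was -0.22 beside -0.04 for all genes. With single arrays left out, Vnn1 missed the threshold without chow 3 or HFD 2 and Angptl4 without chow 2, chow 3, HFD 2 or HFD 3. Acot1 missed it without 6 of the 9 arrays (adjusted p up to 0.107) and Cyp4a31 without 7 (up to 0.101), the 3 chow arrays among them. Ehhadh, the call of this list nearest the threshold, was not followed through these fits.

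Pparg was measured by 1 probe (chr6:115440213-115440272 in mm9, plus strand) printed at 10 spots of each array. It read 1.73, 1.45 and 1.18 in chow, 2.47, 1.80 and 1.89 in HFD, and 0.74, 1.63 and 1.43 in HFD+APS. The HFD livers lay above both other groups without overlap, HFD 1 highest and HFD+APS 1 lowest of the 9. The change was 0.59 ± 0.27 in HFD against chow (adjusted p = 0.181), -0.78 ± 0.27 in HFD+APS against HFD (adjusted p = 0.193) and -0.19 ± 0.27 in HFD+APS against chow (adjusted p = 0.708). None passed the threshold.

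Within the slide shared by HFD and HFD+APS 1, Pparg differed by -1.31 (adjusted p = 0.195). Over the other settings its change in HFD+APS against HFD ran from -1.31 to -0.52, and without HFD+APS 1 it was -0.52. The 10 spots of the Pparg probe had an SD of 0.05 to 0.07 on an array, and the arrays of a diet an SD of 0.28 to 0.46. The spots give the noise within an array only. With 1 array a liver, differences between livers and between arrays cannot be told apart.

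Of 9 genes known as Pparg targets in fatty liver or fat tissue, 4 rose and 0 fell in HFD against chow, and 0 rose and 4 fell in HFD+APS against HFD. The share of all genes called was 4.55% higher in the first comparison and 1.03% lower in the second. The list's medians were 1.25 and -1.74, beside -0.04 and 0 for all genes. The list was made with earlier results of these livers known, so its direction is no independent evidence.

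Cidea, a lipid droplet protein, read -2.63, -3.08 and -2.84 in chow, 6.10, 2.98 and 4.11 in HFD, and -1.72, -1.53 and -1.74 in HFD+APS. It rose by 7.25 ± 0.65 in HFD against chow (adjusted p = 0.0019) and fell by 6.06 (SE 0.65, adjusted p = 0.01) in HFD+APS against HFD. Mogat1, a triglyceride synthesis enzyme, rose by 2.70 ± 0.13 and then fell by 2.20 (SE 0.13), with adjusted p of 0.000353 and 0.000608, and held both calls in every other setting. Both genes were far higher in all 3 HFD livers than in the other 6.

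Cd36, a fatty acid transporter, rose by 2.07 ± 0.19 in HFD against chow (adjusted p = 0.00203) and fell by 1.74 (SE 0.19, adjusted p = 0.01) in HFD+APS against HFD. Plin4, a coat protein of lipid droplets, read 3.19, 3.35 and 3.46 in chow, 4.85, 3.35 and 4.03 in HFD, and 1.85, 1.42 and 1.87 in HFD+APS. It fell by 2.36 (SE 0.33, adjusted p = 0.0214) in HFD+APS against HFD, and by 1.61 (SE 0.33, adjusted p = 0.0428) in HFD+APS against chow. Of the 9 listed Pparg targets, 3 had a change below 0 in HFD+APS against chow, and Plin4 was the 1 past the threshold. The first call was lost without HFD 3 and without either of HFD+APS 2 and 3 (largest adjusted p over all settings 0.231), and the second without these or any chow array (up to 0.138). Fitm1, which helps form lipid droplets, rose by 1.22 ± 0.20 in HFD against chow (adjusted p = 0.0147, and 0.0512 without chow 2) and gave -0.52 ± 0.20 in HFD+APS against HFD (adjusted p = 0.229). Within the shared slide the changes in HFD+APS against HFD were -6.12 for Cidea, -1.62 for Cd36, -2.22 for Plin4 and -2.27 for Mogat1, of which Mogat1 alone passed (adjusted p = 0.0457).

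Markers of adipocytes and macrophages, in which Pparg is also expressed, were read beside these values. Of 5 adipocyte markers, only Cfd had a probe above background on 3 or more arrays, and Adipoq, Plin1, Lep and Retn did not. Cfd read 2.44, -2.28 and -3.48 in chow, 4.41, 1.42 and 4.18 in HFD, and -2.16, -1.60 and -1.59 in HFD+APS. On the linear scale, where 1 is the 75th percentile, that is 0.0897 to 5.44, 2.68 to 21.3 and 0.224 to 0.331. Of 5 tested markers of monocyte-derived macrophages, 2 (Ly6c2 and Trem2) were higher in HFD than in chow past the threshold and 0 lower. Of all genes 4.55% were higher and 6.38% lower. Cd9 of the same list gave -0.71 ± 0.26 (adjusted p = 0.113) in HFD against chow and -0.99 ± 0.26 (adjusted p = 0.0749) in HFD+APS against chow. The summed level of the 5 was 11.7 to 11.9 in chow, 24.3 to 31.1 in HFD and 11.5 to 22.4 in HFD+APS. Of 7 markers of Kupffer cells, the resident macrophages of the liver, 0 passed in any comparison of the limma fit. In HFD against chow 5 had an unadjusted p under 0.05 and the median change was 1.05; against HFD, the HFD+APS livers gave 0 and -0.17, and against chow 3 and 1.02. Against chow 6 of 7 were above 0 in both diets. Their summed level was 35.6 to 53.4 in chow, 59.5 to 93.6 in HFD and 46.5 to 99.5 in HFD+APS. The part of any of these in the Pparg values was not tested. In bulk liver, fewer cells of a type and less RNA per cell cannot be told apart.

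**Figure D3:**
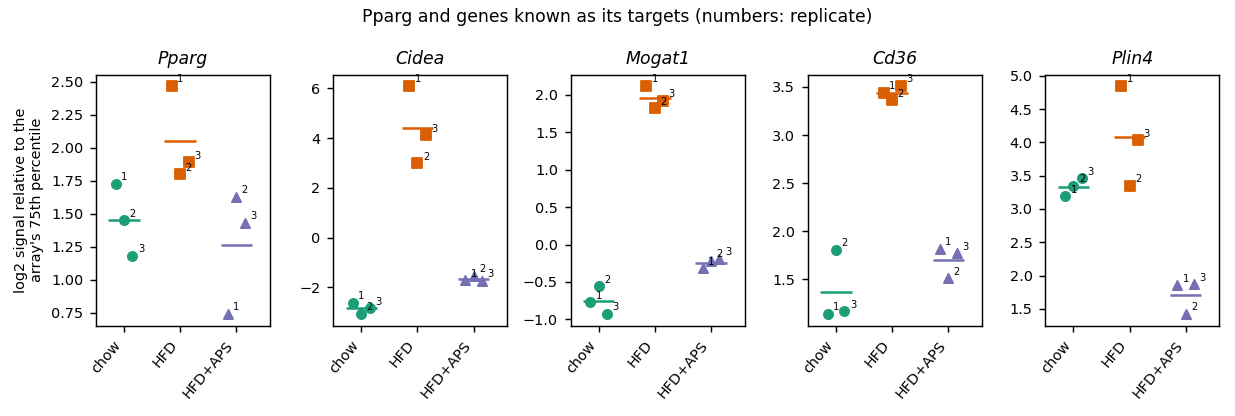
Log2 signal, scaled to each array's 75th percentile, of Pparg and 4 genes known as its targets, each point 1 liver with its replicate number, each bar the mean of 3. The HFD livers are the highest for Pparg (1.80 to 2.47), Cidea, Mogat1 and Cd36, while for Plin4 they overlap chow. Within a diet Pparg had an SD of 0.28 to 0.46, beside changes of 0.59 in HFD against chow and -0.78 in HFD+APS against HFD, neither past the threshold.

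The retinoid X receptors are the shared partners of the PPAR, LXR, FXR, CAR, PXR, thyroid, retinoic acid and vitamin D receptors. Rxra, the main one of the liver, read 5.83, 6.05 and 5.88 in chow, 6.05, 5.71 and 5.67 in HFD, and 5.91, 5.33 and 5.52 in HFD+APS. The groups overlapped in each comparison, and the changes were -0.11 ± 0.17 in HFD against chow, -0.23 ± 0.17 in HFD+APS against HFD and -0.34 ± 0.17 in HFD+APS against chow, with adjusted p of 0.265 or more. Its second probe gave 0.49 ± 0.17 in HFD+APS against chow (adjusted p = 0.131), the opposite sign.

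Rxrb read 1.15, 1.70 and 1.43 in chow, 1.08, 0.98 and 0.77 in HFD, and 0.97, 0.99 and 1.16 in HFD+APS. All HFD livers lay below all chow livers, and HFD+APS 3 reached the lowest chow liver. Its change was -0.48 ± 0.16 in HFD against chow (adjusted p = 0.0823) and -0.39 ± 0.16 in HFD+APS against chow (adjusted p = 0.172), and neither passed. Its 2 probes had the same sign in every comparison. Rxrg, known from muscle and brain, differed by -0.08 ± 0.15 in HFD against chow and 0.01 ± 0.15 in HFD+APS against HFD.

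Among the retinoic acid receptors, Rarb gave 0.14 ± 0.32 and Rarg -0.47 ± 0.40 in HFD against chow, with adjusted p of 0.794 and 0.455. Rarb was highest in chow 1 at -0.38, while chow 2 and 3 read -1.59 and -1.65. Of 6 tested genes known to respond to retinoic acid, 0 passed in each comparison.

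Thra and Thrb are the receptors of thyroid hormone, Thrb the main one of hepatocytes. Thra read 3.23, 2.50 and 2.74 in chow, 2.29, 2.31 and 2.43 in HFD, and 2.66, 2.85 and 2.47 in HFD+APS. The HFD livers lay below both other groups without overlap, with a change of -0.48 ± 0.19 against chow (adjusted p = 0.128) and of 0.32 ± 0.19 in HFD+APS against HFD (adjusted p = 0.411). Thrb changed by 0.31 ± 0.19 in HFD against chow (adjusted p = 0.306), and its 3 tested probes ran from -0.18 to 0.39.

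Of 7 tested genes known to respond to thyroid hormone, 2 rose and 0 fell in HFD against chow (4.55% and 6.38% of all genes). None passed in the comparisons with HFD+APS. Dio1, the deiodinase that activates the hormone, read 2.81, 3.47 and 3.24 in chow, 4.66, 4.90 and 5.04 in HFD, and 4.12, 3.56 and 4.17 in HFD+APS. The HFD livers lay above all others. Dio1 rose by 1.70 ± 0.22 (adjusted p = 0.00788) and held that call in 20 of 20 other settings. Thrsp, a lipogenic protein that insulin and carbohydrate also raise, rose by 3.07 ± 0.75 (adjusted p = 0.0389). That call held in 10 of 20 other settings (largest adjusted p 0.123). With single arrays left out, it held only without HFD 3 or without HFD+APS 1.

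The sterol and bile acid receptors are the oxysterol receptors Nr1h2 (LXR beta) and Nr1h3 (LXR alpha) and the bile acid receptor Nr1h4 (FXR). Nr1h2 read 1.56, 1.80 and 1.57 in chow, 1.37, 1.51 and 1.47 in HFD, and 1.76, 1.79 and 1.80 in HFD+APS. The HFD livers were lowest and did not overlap either other group, and the HFD+APS livers lay within 0.04 of each other. Its change was -0.19 ± 0.10 in HFD against chow (adjusted p = 0.234) and 0.33 ± 0.10 in HFD+APS against HFD (adjusted p = 0.15). In the second comparison no receptor had a smaller p, and none of the 21 other settings took Nr1h2 past the threshold (adjusted p 0.0623 to 0.396). Within the shared slide Nr1h2 differed by 0.31 (adjusted p = 0.396).

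Nr1h3 read 3.36, 3.55 and 3.49 in chow, 3.69, 3.67 and 3.57 in HFD, and 3.69, 3.56 and 3.77 in HFD+APS. Both fatty diets lay above chow without overlap, by 0.18 ± 0.10 for HFD (adjusted p = 0.271) and 0.21 ± 0.10 for HFD+APS (adjusted p = 0.244). Of 11 genes known as LXR targets, 2 rose and 0 fell in HFD against chow (4.55% and 6.38% of all genes). They were Smpdl3a, a phosphodiesterase, at 0.59 ± 0.12 (adjusted p = 0.0259), and Pltp, the phospholipid transfer protein, at 1.12 ± 0.28 (adjusted p = 0.042). Abcg5, a sterol exporter, gave 0.34 ± 0.13 (adjusted p = 0.125), and 10 of the 11 had a change above 0. The list's median change was 0.34, beside -0.04 for all genes. In HFD+APS against chow 0 of the 11 passed, 10 had a change above 0, and the median was 0.54, beside -0.03. Abcg5 gave 0.54 ± 0.13 there (adjusted p = 0.058). In HFD+APS against HFD 0 passed and the median was -0.01, beside 0. The call of Smpdl3a was lost without chow 2, chow 3, HFD 1 or HFD 2 (adjusted p up to 0.0712), and that of Pltp without each array but HFD+APS 1 and 2 (up to 0.127).

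Nr1h4 read 5.01, 5.03 and 4.94 in chow, 5.02, 4.71 and 4.66 in HFD, and 4.72, 5.04 and 4.77 in HFD+APS. The chow livers lay close together, while 1 HFD and 1 HFD+APS liver reached them. Its changes were -0.19 ± 0.13, 0.05 ± 0.13 and -0.15 ± 0.13, with adjusted p of 0.349 or more. Of 10 tested genes known as FXR targets, 1 rose and 0 fell in HFD against chow (4.55% and 6.38% of all genes). It was Apoc2, the activator of lipoprotein lipase, at 0.83 ± 0.10 (adjusted p = 0.0052), and its call held in 20 of 20 other settings.

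Nr0b2, or SHP, is a receptor with no DNA-binding domain that FXR induces and that represses other receptors. It read 0.65, 0.76 and 0.63 in chow, 0.28, 0.23 and 0.76 in HFD, and 0.20, 1.07 and -0.04 in HFD+APS. The SD was 0.07 in chow, 0.29 in HFD and 0.59 in HFD+APS, and HFD+APS 2 was the highest of the 9. The changes were -0.26 ± 0.28 and -0.27 ± 0.28 against chow, with adjusted p of 0.562 and 0.582. Cyp7a1, the first enzyme of bile acid synthesis and repressed through SHP, gave -0.14 ± 0.54 in HFD against chow (adjusted p = 0.89) and likewise varied widely, from 1.28 to 3.41. Nr5a2, or LRH-1, which works on the same genes, changed by -0.21 ± 0.14 in HFD against chow (adjusted p = 0.328), with HFD below chow without overlap.

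Nr1i2 (PXR) and Nr1i3 (CAR) sense drugs and other foreign compounds and induce the enzymes that clear them. Nr1i2 read 1.94, 2.53 and 2.51 in chow, 2.70, 2.48 and 1.89 in HFD, and 2.38, 2.18 and 2.48 in HFD+APS. The 3 group means were 2.33, 2.36 and 2.35, and the 95% interval in HFD against chow ran from -0.52 to 0.58. Nr1i3 read 2.71, 2.75 and 2.46 in chow, 3.14, 3.05 and 2.44 in HFD, and 3.03, 3.53 and 3.25 in HFD+APS. All HFD+APS livers lay above all chow livers, while HFD 3 read as low as the lowest chow liver. Its change was 0.24 ± 0.21 in HFD against chow (adjusted p = 0.479), 0.39 ± 0.21 in HFD+APS against HFD (adjusted p = 0.363) and 0.63 ± 0.21 in HFD+APS against chow (adjusted p = 0.117).

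Of 16 genes known as CAR or PXR targets, 2 rose and 3 fell in HFD against chow (4.55% and 6.38% of all genes). In HFD+APS against HFD 1 rose (0.476% of all genes), and in HFD+APS against chow 1 fell (2.5%). Beside the 2 enzymes described next, Aldh1a1, which oxidises retinal, rose by 0.57 ± 0.15 in HFD against chow (adjusted p = 0.0495). Ces2a, a carboxylesterase, fell by 1.60 (SE 0.37, adjusted p = 0.0353), and Gadd45b, a stress-induced CAR target, fell by 1.79 (SE 0.35, adjusted p = 0.0214) in HFD and by 1.63 (SE 0.35, adjusted p = 0.0465) in HFD+APS against chow. The call of Ces2a was lost without 6 of the 9 arrays, and those of Gadd45b without 5 and 8. The call of Aldh1a1, close to the threshold, was not followed through these fits. Cyp2b10, the classical CAR target, read -1.91, -2.24 and -1.88 in chow, 1.02, 2.44 and 0.14 in HFD, and -0.64, -1.15 and -0.80 in HFD+APS. It rose by 3.21 ± 0.49 in HFD against chow (adjusted p = 0.012), and in HFD+APS against HFD its change was -2.07 ± 0.49 (adjusted p = 0.0818). The first call missed the threshold without chow 2 (adjusted p = 0.0505) and with the mean of its 2 probes (largest adjusted p over all settings 0.0527). It held in the other 18 of 20 settings.

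Cyp3a11, the classical PXR target, read 6.30, 6.70 and 6.64 in chow, 5.04, 4.95 and 3.57 in HFD, and 6.24, 7.20 and 6.96 in HFD+APS. The HFD livers were the 3 lowest. Cyp3a11 fell by 2.03 (SE 0.41, adjusted p = 0.0237) in HFD against chow and rose by 2.28 ± 0.41 in HFD+APS against HFD (adjusted p = 0.0394). The first call was lost without either of chow 2 and 3 (largest adjusted p 0.0813), the second without each array but HFD 3 and HFD+APS 1, and within the shared slide the change was 1.72 (adjusted p = 0.333). The 2 enzymes thus differed in opposite directions while neither receptor passed the test. Probes of the Cyp2b and Cyp3a families can read near-identical relatives.

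Hnf4a keeps hepatocytes in their differentiated state. Its 3 probes lie on the plus strand of chromosome 2 in mm9, on 1 annotated transcript, and the start of each (30 of 60 bases, no base singled out) is shown because they did not move together.
Hnf4a A_52_P69656 (chr2:163378302-163378361, transcript base 413): ccgacaatgtgtggtagacaaagataagag
Hnf4a A_51_P198473 (chr2:163396065-163396124, transcript base 1779): ctggactcctctcaagttgaagtcatcgtc
Hnf4a A_52_P683991 (chr2:163398074-163398133, transcript base 3788): tattacagtacagggaacatggaataaagg

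The brightest, A_52_P683991, stood for the gene. On it Hnf4a read 3.64, 4.26 and 4.18 in chow, 3.83, 3.64 and 3.37 in HFD, and 3.48, 3.76 and 3.84 in HFD+APS. The groups overlapped through chow 1, and the change was -0.41 ± 0.20 in HFD against chow (adjusted p = 0.198) and -0.33 ± 0.20 in HFD+APS against chow (adjusted p = 0.341). On the probe at transcript base 413, Hnf4a read 1.33, 1.78 and 1.53 in chow and 1.0, 0.95 and 0.48 in HFD, without overlap. With each probe as a feature, that probe gave -0.73 ± 0.18 in HFD against chow (adjusted p = 0.0395), while the probe at base 1779 gave 0.27 ± 0.19 (adjusted p = 0.385). Of 9 genes known as Hnf4a targets, 0 passed in each comparison, and the medians were -0.09, 0.04 and 0.02.

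Fitting each probe as a feature was added after the data were seen. In that fit 9.97% of all probes passed in HFD against chow, 3.65% higher and 6.32% lower, and 4 of the 54 receptor probes passed, all lower. They were 1 probe each of Hnf4a, Nr2c1, Nr2f2 and Rora. For HFD+APS against HFD, 0 of 54 passed (1.22% of all probes, 0.419% higher and 0.801% lower). For HFD+APS against chow, 1 passed, the Esrrg probe (2.58% of all probes, 0.623% higher and 1.96% lower). When single arrays were left out, each of these 5 calls held in 1 of 9 fits, the one without HFD+APS 1.

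**Figure D4:**
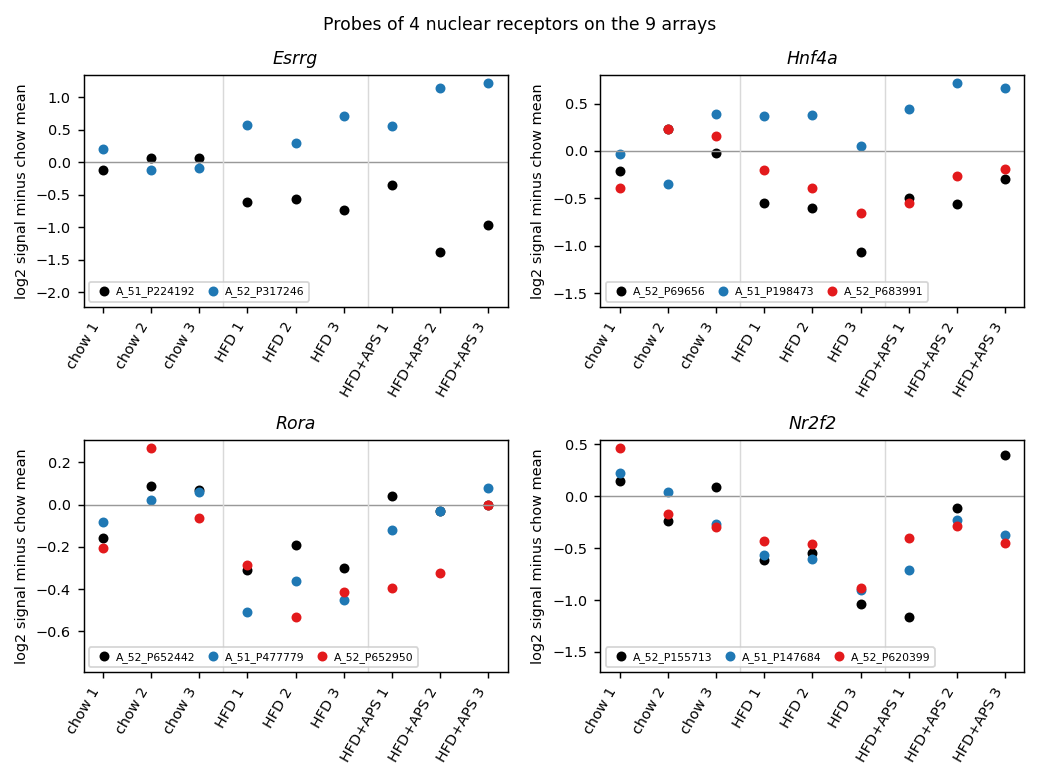
Log2 signal, less the chow mean, of every tested probe of Esrrg, Hnf4a, Rora and Nr2f2 on the 9 arrays, each point 1 probe on 1 array. The 2 probes of Esrrg part in opposite directions, those of Hnf4a disagree in sign, and the 3 probes each of Rora and Nr2f2 are all below the chow mean in HFD.

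Rora is an orphan receptor of the clock and of lipid metabolism that activates genes which the REV-ERB receptors repress. Its 3 probes lie on the plus strand of chromosome 9 in mm9. They are shown in the same form because, unlike those of Hnf4a and Esrrg, they had 1 sign in HFD against chow. In HFD+APS against HFD they also had 1 sign, as did the probes of Hnf4a but not those of Esrrg.
Rora A_52_P652442 (chr9:69226611-69226670, transcript base 1419): gcaaggtgtctacgttaagagccctatgtg
Rora A_51_P477779 (chr9:69226711-69226770, transcript base 1519): attatacaaggaattgttcacttcagaatt
Rora A_52_P652950 (chr9:69233105-69233164, transcript base 7929): gtgtaggagtaactactcctaagaagatga

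On A_52_P652442, which stood for the gene, Rora read 2.0, 2.25 and 2.23 in chow, 1.85, 1.97 and 1.86 in HFD, and 2.20, 2.13 and 2.16 in HFD+APS. The HFD livers were the 3 lowest. The change was -0.27 ± 0.10 in HFD against chow (adjusted p = 0.119), 0.27 ± 0.10 in HFD+APS against HFD (adjusted p = 0.22) and 0.00 ± 0.10 in HFD+APS against chow (adjusted p = 0.992). Within the shared slide the second was 0.31 (adjusted p = 0.382).

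On A_51_P477779, Rora read 2.03, 2.13 and 2.17 in chow, 1.60, 1.75 and 1.66 in HFD, and 1.99, 2.08 and 2.19 in HFD+APS. Again the HFD livers were the 3 lowest. As a feature of its own this probe fell by 0.44 (SE 0.10, adjusted p = 0.0357) in HFD against chow and gave 0.42 ± 0.10 in HFD+APS against HFD (adjusted p = 0.0909). The remaining probe gave -0.41 ± 0.16 and 0.17 ± 0.16. Of 7 tested genes known as targets of ROR and REV-ERB, 0 passed in each comparison. Their spread within a diet differed. Dbp had an SD of 0.61, 1.47 and 2.65 in chow, HFD and HFD+APS, and Clock 0.11, 0.20 and 0.10. The change of Dbp in HFD against chow was 1.45 ± 1.25 (adjusted p = 0.461).

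Nr1d1, or REV-ERB alpha, a receptor not among the 38 whose level swings over the day, gave -0.73 ± 0.50 in HFD against chow (adjusted p = 0.35), and the hour at which livers were taken was not given in the sources used here.

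Nr2c1 and Nr2c2 (TR2 and TR4), Nr2f2 (COUP-TF2) and Nr2f6 (COUP-TF3) are orphan receptors that mostly repress, often at sites that HNF4 or RXR pairs bind. All 4 had a negative change in HFD against chow without overlap of the groups, as 22.3% of all genes had, and none passed. Nr2f2, known also from vein endothelium and mesenchymal cells, read 3.29, 2.66 and 2.53 in chow, 2.40, 2.37 and 1.94 in HFD, and 2.43, 2.54 and 2.38 in HFD+APS. Chow 1 stood highest and HFD 3 lowest. Its change was -0.59 ± 0.21 in HFD against chow (adjusted p = 0.103) and 0.21 ± 0.21 in HFD+APS against HFD (adjusted p = 0.626).

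The 3 Nr2f2 probes ran from -0.74 to -0.59 in HFD against chow. Probe A_51_P147684 fell by 0.69 (SE 0.18, adjusted p = 0.0464) as a feature of its own. Endothelial markers went the other way: 2 of 7 (Clec4g and Oit3) were higher in HFD than in chow past the threshold and 0 lower, and all 7 changes were above 0. Their summed level on the linear scale was 28.3 to 46.0 in chow, 55.5 to 65.9 in HFD and 59.6 to 68.7 in HFD+APS. Of 8 stellate cell markers 2 (Col1a1 and Col3a1) were higher in HFD than in chow and 0 lower. Of all genes 4.55% were higher and 6.38% lower. The part of cell makeup in the Nr2f2 values was not tested.

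Nr2f6 read 5.49, 5.46 and 5.41 in chow, 5.31, 5.33 and 5.28 in HFD, and 5.22, 5.22 and 5.19 in HFD+APS. The 3 groups did not overlap, in the order chow, HFD, HFD+APS, each with an SD of 0.02 to 0.04. The changes were small, -0.15 ± 0.08 in HFD against chow (adjusted p = 0.263), -0.10 ± 0.08 in HFD+APS against HFD (adjusted p = 0.576) and -0.24 ± 0.08 in HFD+APS against chow (adjusted p = 0.123). Nr2c1 gave -0.18 ± 0.11 and Nr2c2 -0.30 ± 0.13 in HFD against chow, with adjusted p of 0.295 and 0.167. One of the 3 Nr2c1 probes gave -0.65 ± 0.17 (adjusted p = 0.0496) as a feature.

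Nr3c1, the glucocorticoid receptor, read 1.98, 1.95 and 1.88 in chow, 2.26, 2.40 and 2.16 in HFD, and 2.02, 2.55 and 2.36 in HFD+APS. Both fatty diets lay above chow, by 0.34 ± 0.15 for HFD (adjusted p = 0.154) and 0.37 ± 0.15 for HFD+APS (adjusted p = 0.16), and without HFD+APS 1 the second passed, at 0.52 (adjusted p = 0.0412). Its 4 probes ran from -0.78 to 0.34 in HFD against chow, with 2 on each side of 0. Of 9 tested genes known to respond to glucocorticoids, 1 fell and 0 rose in HFD against chow (6.38% and 4.55% of all genes). It was Tat, an enzyme of tyrosine breakdown, which fell by 0.73 (SE 0.18, adjusted p = 0.0417), a call lost without each array but HFD+APS 1 (largest adjusted p 0.115). Nr3c2, the mineralocorticoid receptor, gave -0.11 ± 0.20 in HFD against chow (adjusted p = 0.746) and -0.42 ± 0.20 in HFD+APS against chow (adjusted p = 0.24).

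The NR4A receptors are immediate early genes that cells turn on within minutes of a stimulus. Nr4a1 read 3.04, -0.73 and -0.46 in chow, -0.11, -0.40 and 0.36 in HFD, and 0.91, -1.07 and -0.87 in HFD+APS. Chow 1 stood far above the other 8 livers. Its change in HFD against chow was -0.67 ± 0.97 (adjusted p = 0.675) and became 0.54 without chow 1 (adjusted p = 0.56), so the sign was set by that liver. Neither value passed.

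Other immediate early genes were read on the same arrays. Fos gave -1.15 in chow 1, beside -4.34 and -3.40 in chow 2 and 3, and Jun gave 1.60 beside -0.56 and -0.36. Egr1 gave 2.06 in chow 1, 2.17 in HFD 3 and 1.69 in HFD+APS 1, and -1.01 to -0.09 in the other 6. The mean of 6 such genes, each centred over the arrays, was 0.98 in chow 1 and 1.11 in HFD 3, and -0.68 to 0.29 in the rest. Their part in the Nr4a1 values was not tested. Nr4a2 did not share the chow 1 peak, at -1.62, -1.19 and -1.60 in chow, and gave -0.58 ± 0.28 in HFD against chow (adjusted p = 0.2) with HFD below chow in all 3 livers.

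**Figure D5:**
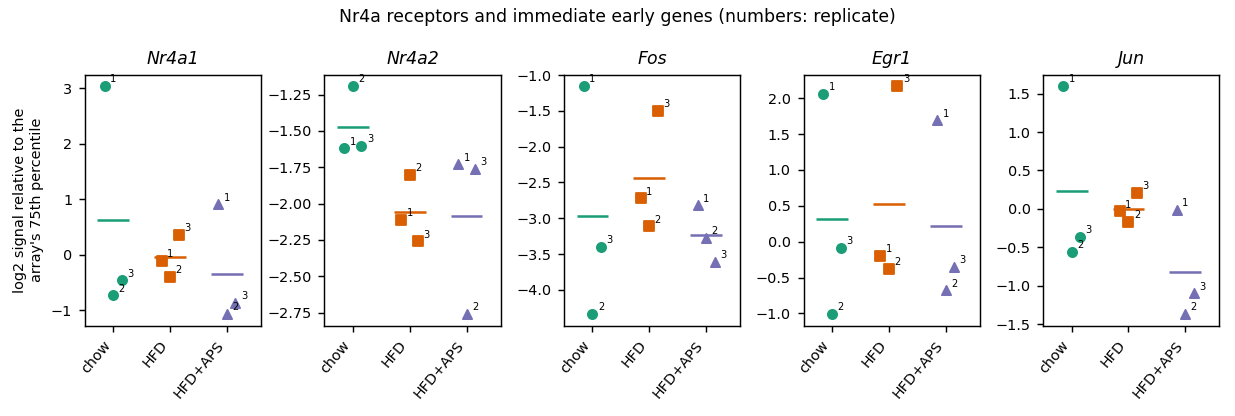
Log2 signal, scaled to each array's 75th percentile, of Nr4a1, Nr4a2 and the immediate early genes Fos, Egr1 and Jun, each point 1 liver with its replicate number, each bar the mean of 3. Chow 1 is the highest liver for Nr4a1 (3.04), Fos (-1.15) and Jun (1.60), HFD 3 is the highest for Egr1 (2.17), and Nr4a2 has no peak in chow 1.

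Nr6a1, or GCNF, an orphan receptor known from germ cells, read -0.87, -0.80 and -0.91 in chow, -1.27, -1.29 and -1.79 in HFD, and -1.47, -0.56 and -0.93 in HFD+APS. The HFD livers lay below chow without overlap, with a change of -0.59 ± 0.23 (adjusted p = 0.13). HFD+APS 1 read within the HFD range, and the change in HFD+APS against HFD was 0.46 ± 0.23 (adjusted p = 0.341).

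Of 19 coregulators, the proteins through which the receptors act on chromatin, 0 passed in the comparisons with HFD+APS. In HFD against chow 1 rose and 0 fell (4.55% and 6.38% of all genes). It was Tbl1xr1, a part of the corepressor complex, at 0.58 ± 0.13 (adjusted p = 0.0306), a call lost without each array but chow 1, HFD+APS 1 and HFD+APS 2 (adjusted p up to 0.128). The coregulators' median change was -0.08, beside -0.04 for all genes. Over the lists of known targets, 106 of 112 genes were tested, and 12 rose and 8 fell in HFD against chow, 1 rose and 4 fell in HFD+APS against HFD, and 0 rose and 2 fell in HFD+APS against chow. That is 18.9%, 4.72% and 1.89% of the targets, beside 10.9%, 1.5% and 3.46% of all genes, and 0, 0 and 3.12% of the receptors. The target lists were made with earlier results of these livers known, so their shares are no independent evidence. All 4 targets that fell in HFD+APS against HFD were from the Pparg list.

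Of the 32 receptors, 15 had more than 1 tested probe. All probes of a receptor had 1 sign for 9 of the 15 in HFD against chow, negative for each of the 9, for 8 of 15 in HFD+APS against HFD (7 positive, 1 negative) and for 7 of 15 in HFD+APS against chow (6 negative, 1 positive). The rest, among them Esrrg, Hnf4a, Rxra and Nr3c1, gave a sign that depended on the probe in at least 1 comparison. Such counts were not made for the other genes with more than 1 tested probe, so they do not set receptors apart. Over all genes, too, more were called lower than higher in HFD against chow (6.38% and 4.55%).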

How the data were processed

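Total RNA of 9 livers was hybridised by the authors to 1-colour (Cy3) Agilent arrays of 45018 spots, 1639 of them controls, and read with Feature Extraction 10.7.1.1, per the file headers (10.7 in the submitters' processing notes, which also name limma without its role). The intensity used is the processed signal of the deposited scanner files, background-subtracted by the scanner software per the file headers and not scaled between arrays. The authors' deposited table of values is on the log2 scale; its normalization is not given in the sources used here, each column correlated at 0.9969 or more with the log2 signal, and its column medians were 4.98 to 5.00.

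Here (R 4.3.3, the data.table package in version 1.17.8, limma 3.58.1) spots flagged as outliers were left out, replicate spots averaged, and each array's 75th percentile subtracted on the log2 scale. Probes well above background on at least 3 of 9 arrays entered (26473), and the brightest probe stood for a gene (17629, with 5 missing values). The fit (lmFit and eBayes) had 6 residual and 2.2 prior degrees of freedom, and Benjamini-Hochberg adjustment ran over all genes. The number of arrays limits the precision. The script was tested on simulated data. Alternatives were other scalings, background corrections and filters, the mean over probes, array weights, slide and replicate blocks, and each array left out.

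The 38 receptors and all gene lists were chosen with earlier results of these data known. Values on every array are given for receptors past the threshold, for Ppara, Pparg, Nr1h3, Nr1h4, Nr1i2, Nr1i3, Hnf4a, Rxra and Nr0b2, and for the 4 smallest p in each comparison; from the target lists, up to 4 called genes per list with the smallest p and 10 genes whatever their values could be named. Thra, Nr3c1, Nr4a1, Nr4a2, Nr6a1 and Cfd were given by array, and Ehhadh, Aldh1a1, Cd9, Dbp and Clock named, after their values were seen. The hepatocyte markers (6 of 6 tested) summed to 2110 to 2420 in chow, 2130 to 2450 in HFD and 2000 to 2670 in HFD+APS, which bears out the labelled tissue. The labels do not say whether replicate numbers pair livers; same-numbered arrays' deviations correlated at -0.18 to 0.16, so they were taken as unpaired. Probe positions are those of the files' mm9 annotation. Nuclear receptors beyond the 38 are not reported here as a list.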

Additional observations from a re-analysis of the deposited data

How the results depend on the processing

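No value past the threshold in either setting changed sign. Values that did not pass could change sign: over the settings Nr4a1 in HFD against chow ran from -1.34 to 0.54, Nr3c1 from -0.11 to 0.40 and Esrrg from -0.06 to 0.64. The count of receptors called in HFD against chow (0) became 1 with array weights (Esrrb; 17.4% of all genes) and 4 with each probe as a feature (9.97% of all probes), which was added after seeing the data. It was 0 in the other settings and with each array left out. In HFD+APS against HFD (0) it became 1 with array weights (Esrrg; 7.2% of all genes) and was otherwise 0, also within the shared slide. In HFD+APS against chow (1) it became 0 without a filter, 0 with the mean of the probes, 0 with only the groups compared, 0 with slide as a random block, 0 with a replicate block and 5 with array weights (Esrrb, Esrrg, Nr1i3, Nr2f6 and Nr3c1), where 18% of all genes passed. With single arrays left out it ranged from 0 to 2: without HFD+APS 1 it was 2 (Esrrg and Nr3c1; 9.1% of all genes), without HFD 3 it was 1 (3.74%), and without any of the other 7 it was 0 (0.119 to 2.48%).

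Of 637, 669 and 637 values of single receptors under the alternatives, 636, 668 and 620 kept their side of the threshold. With the array median in place of the 75th percentile, the median of all genes in HFD+APS against chow moved from -0.03 to 0.11, and 17 instead of 12 receptors were above 0. The share of higher among all called genes moved from 31.7 to 46.9% in HFD+APS against HFD and from 27.7 to 42% in HFD+APS against chow. With normexp background the last was 42.1%.

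Over all genes the number called in HFD against chow was 1928 and ranged from 365 (without chow 2) to 3069 (array weights). In HFD+APS against HFD it was 265 and ranged from 15 (within the shared slide) to 1269 (array weights). In HFD+APS against chow it was 610 and ranged from 21 (without chow 3) to 3179 (array weights). The replicate block gave 1322, 82 and 295, and a random slide block, with a correlation of 0.11, gave 684, 164 and 160. The numbers 1 to 3 are shared only as numbers.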
